A study of Mus musculus with 19 samples.

Results

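The miRNA families miR-467, miR-466, miR-669 and miR-297 were followed in the nucleus accumbens, soleus and extensor digitorum longus (EDL) of inherently high-active and low-active inbred mice. Members were taken by name alone, as every mouse miRNA of the array carrying one of these 4 numbers with any letter, locus and arm. This gave 62 of the 1136 miRNAs and 164 of the 2889 probes of a single-dye Agilent mouse miRNA array. Total RNA was hybridized on 19 arrays from 8 male mice, all 9 weeks old, untreated, and housed singly with a locked running wheel for the week before tissues were taken. High-active mice were of the inbred strain C57L/J and gave 4 nucleus accumbens, 4 soleus and 2 EDL arrays. Low-active mice were C3H/HeJ and gave 3, 2 and 4 arrays. Each activity group was a single strain, so strain and activity level cannot be told apart. The nucleus accumbens is a reward region of the ventral forebrain, the soleus a slow-twitch and the EDL a fast-twitch muscle of the hindlimb.

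A mature miRNA guides the silencing complex to messenger RNAs through its seed, bases 2 to 8 counted from the 5′ end. Each precursor hairpin can yield one miRNA from its 5′ arm (5p) and one from its 3′ arm (3p). The 4 families are known from rodents, their sequences are built largely of simple dinucleotide repeats, and most copies lie in one intron of Sfmbt2, a Polycomb group gene known for imprinted, paternal expression in the placenta and for its miRNAs in embryonic stem cells and trophoblast. In the reference gene table (RefSeq, assembly GRCm38.p6), 71 of the 81 genes of these families lay within Sfmbt2 on chromosome 2. By name, 50 members had all their genes inside Sfmbt2, 4 had some there and 8 had none.

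The reference held mature sequences for 7 members, all from genes outside Sfmbt2. They are shown 5′ to 3′ with the seed in capitals because the repeat that the families share, alternating A and C or alternating U and G, can be read in them. The first 4 were detected in these tissues and the last 3 on no array.
miR-466i-3p (chromosome 13): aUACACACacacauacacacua
miR-466q (chromosome 3): gUGCACACacacacauacgu
miR-467f (chromosome 11): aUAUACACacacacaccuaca
miR-669n (chromosome 3): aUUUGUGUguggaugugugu
miR-466j (chromosome 10): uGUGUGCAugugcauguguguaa
miR-466k (chromosome 3): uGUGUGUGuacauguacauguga
miR-467g (chromosome 5): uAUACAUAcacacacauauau
An unbroken alternating run of at least 8 bases was present in 6 of the 7. No seed occurred more than once among them. The hairpin of Mir669n, the only one of the 7 genes whose miRNA passed a strain test, carries the mature sequence (capitals) near its 5′ end: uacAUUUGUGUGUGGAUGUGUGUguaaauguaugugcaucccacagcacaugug.

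Of the 62 members, 21 were detected on at least 1 array, 41 on none, and 9 on all 19. A member was detected where most spots of one of its probes were well above background. Signal was found for 1 of 4 miR-297, 8 of 23 miR-466, 6 of 12 miR-467 and 6 of 23 miR-669 members. By arm, 11 of 26 3p members (42.3%), 6 of 25 5p members (24%) and 4 of 11 members named without an arm (36.4%) were detected. Among the 1017 mouse miRNAs outside the families the 3p and 5p shares were 48.3% and 49%. The 9 members miR-466f-3p, miR-466h-3p, miR-466i-3p, miR-466i-5p, miR-466q, miR-467f, miR-669c-3p, miR-669f-3p and miR-669p-3p were present on every array of brain and muscle. A second set was seen mainly or solely in the nucleus accumbens of low-active mice. miR-297a-3p, miR-466b-3p, miR-467a-5p and miR-467d-3p were detected on 3 of 3 such arrays and on no other array. miR-466d-3p, miR-669a-5p and miR-669l-5p were each detected on 1 of these 3 arrays only. A further 3 members had muscle signal in low-active mice alone. miR-467b-5p was detected in 2 of 2 low-active soleus and 3 of 4 low-active EDL arrays, miR-467a-3p in 2 of 2 and 1 of 4, and miR-467e-5p in 1 of 2 and 1 of 4, against 0 of 4 high-active soleus and 0 of 2 high-active EDL arrays for each. Such detection was not particular to these members. Of the 342 miRNAs tested in soleus, 21 were detected in 1 strain only, 19 of them in low-active mice. Of the 330 in EDL there were 10, all in low-active mice. The low-active soleus arrays also detected more miRNAs (342 and 346) than the high-active ones (266 to 315).

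**Figure D1:**
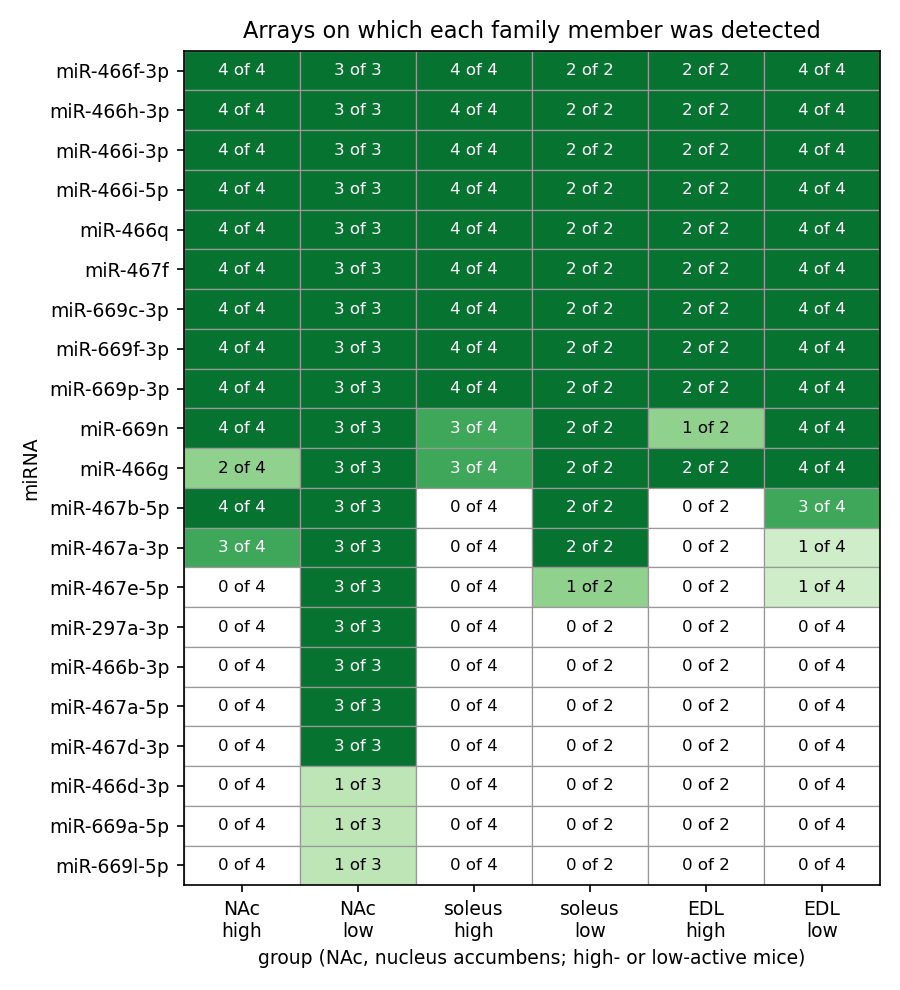
Number of arrays on which each of the 21 detected family members was found (rows), by group (columns, nucleus accumbens, soleus and EDL of high- and low-active mice), with darker green for a larger share. The 9 members at the top were found on all 19 arrays, and those at the bottom on 3 or 1 low-active nucleus accumbens arrays.

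The number of members detected on an array ranged from 11 to 13 in high-active and from 18 to 21 in low-active nucleus accumbens, and from 9 to 14 in muscle. Between 242 and 392 of all miRNAs were detected per array, no member spot was saturated, and between 3.31% and 5.81% of member spots were outliers and were dropped. The labelled tissues were checked with 7 brain and 6 muscle miRNAs. On the common scale, the summed brain markers (among them miR-124-3p and miR-9-5p) ranged from 16.48 to 17.06 (log2) in nucleus accumbens and from 10.05 to 11.58 in muscle. The summed muscle markers (among them miR-1a-3p and miR-133a-3p) ranged from 18.85 to 19.70 in muscle, from 9.00 to 9.21 in high-active accumbens and from 8.88 to 11.18 in low-active accumbens, the highest in mouse 197. One epithelial signal separated accumbens arrays within strains. The sum of miR-200a-3p, miR-200b-3p and miR-200c-3p was 13.98, 7.10, 12.80 and 13.59 in high-active mice 223, 224, 225 and 227 and 6.12, 6.12 and 12.09 in low-active mice 194, 195 and 197.

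In the nucleus accumbens, miR-467a-3p, miR-467b-5p, miR-669f-3p and miR-669n, measured in both strains, were lower in high-active mice by 2.46-fold to 3.41-fold. A further 5 members were detected in low-active mice alone. Of 18 members tested, 9 were called lower, none higher and 9 did not pass the test (limma, adjusted p under 0.05), where 5.88% of all 391 miRNAs tested were called lower and 1.02% higher. A miRNA was tested if detected on at least 3 of the 7 arrays. miR-297a-3p, miR-466b-3p, miR-467a-5p, miR-467d-3p and miR-467e-5p met this through the 3 low-active arrays only and lay at the floor in high-active mice, so their direction was fixed by the filter and their calls are a description. Of the 13 members detected in both strains 4 were called lower and none higher, where 4.74% of the 380 such miRNAs were called lower, and the median was -0.31 against -0.1. All 18 member differences were negative on the log2 scale, but among the 9 that did not pass the sign depended on scaling: 14 of the 18 were negative when arrays were scaled over all probes, 16 after quantile normalization and 10 without scaling. In the 4 called and measured in both strains every high-active array lay below every low-active array, which held for 51 of the 380 miRNAs detected in both strains (13.4%). The 9 called were 5 of 6 tested miR-467 members, 2 of 4 miR-669, 1 of 7 miR-466 and the single miR-297 member, and by arm 5 of 10 3p members, 3 of 4 5p members and 1 of 4 named without an arm. These family and arm counts include the 5 whose direction was fixed by the filter, among them the only miR-466 and miR-297 calls. The 4 measured in both strains were all miR-467 or miR-669 members. The arrays measured whole tissue, in which fewer cells of a type and less RNA per cell cannot be told apart. Values in this comparison are log2 signals scaled over the 7 accumbens arrays, on which the floor, set near the dimmest detected signal, was 4.61.

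miR-467a-3p, encoded by 10 gene copies in Sfmbt2, read 5.16, 5.15, 5.19 and 4.61 in high-active mice 223, 224, 225 and 227, the last at the floor. It read 6.92, 6.80 and 6.66 in low-active mice 194, 195 and 197. All 4 high-active arrays were well below the low-active ones, a difference of -1.77 (SE 0.17, adjusted p = 0.000449), or 3.41-fold. From the other arm of the same hairpins, miR-467a-5p was at the floor on all 4 high-active arrays and at 5.73, 5.82 and 5.72 in low-active mice. High-active mice were thus lower by a factor of at least 2.19 (limma, adjusted p = 0.000226). The direction of miR-467a-5p was fixed by the filter, so it adds no support to that of miR-467a-3p. A group at the floor on every array has no measured spread, so the p-values of such members rest on the spread of the other group and of the other miRNAs.

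miR-467b-5p was measured on all 7 arrays. It read 6.05, 6.08, 6.18 and 5.80 in high-active mice and 7.45, 7.46 and 7.58 in low-active mice. The strains were far apart relative to their spread (difference -1.47, SE 0.13, adjusted p = 0.000226, 2.78-fold). miR-467e-5p was at the floor in all 4 high-active mice and read 5.75, 5.81 and 5.79 in low-active mice, a difference of at least 2.23-fold (adjusted p = 0.000226). miR-467d-3p was likewise at the floor in high-active mice, against 5.37, 5.21 and 5.32, a difference of at least 1.59-fold (adjusted p = 0.00663). These 2 could be measured in low-active mice only. The sixth tested member of the family, miR-467f, comes from a gene on chromosome 11 and its groups overlapped, at 6.55 to 7.12 and 6.76 to 7.56.

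Among the miR-669 miRNAs, miR-669f-3p read 6.23, 6.20, 6.17 and 6.29 in high-active and 7.40, 7.51 and 7.66 in low-active mice (difference -1.30, SE 0.11, adjusted p = 0.000226, 2.46-fold). miR-669n, whose hairpin is printed above, read 4.99, 5.11, 5.33 and 5.15 against 6.56, 6.68 and 6.52 (difference -1.45, SE 0.12, adjusted p = 0.000226, 2.73-fold). Neither showed any overlap between strains. In the reference their genes lie in different places, that of miR-669f-3p inside Sfmbt2 and that of miR-669n on chromosome 3. The study instead places miR-669n on chromosome 2, among the miRNAs of Sfmbt2. miR-669c-3p and miR-669p-3p, with all their genes in Sfmbt2, were measured on every array and did not pass the test, at -0.17 and -0.33.

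miR-466b-3p, which has 8 gene copies in Sfmbt2, was at the floor on all 4 high-active arrays and read 5.99, 6.21 and 6.10 in low-active mice. The difference was at least 2.78-fold (adjusted p = 0.000151). The study assayed miR-466b-3p by qRT-PCR in the soleus, through a miR-466p-3p assay, and here it was detected on no soleus array. miR-466d-3p, which the study took to qRT-PCR in the nucleus accumbens, was at the floor on 6 of the 7 arrays. It read 4.83 in low-active mouse 197, too few detections to be tested. By qRT-PCR the study reported miR-466 as lower in high-active mice in both nucleus accumbens and soleus. The missing array detections do not test that result. The study describes the mature sequences of miR-466b-3p and miR-466d-3p as identical. miR-297a-3p was at the floor in high-active mice and at 5.4, 5.46 and 5.94 in low-active mice, a difference of at least 1.96-fold (adjusted p = 0.00728). Of the 9 members called lower, 5 were therefore below background on every high-active array and 4 were measured in both strains.

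**Figure D2:**
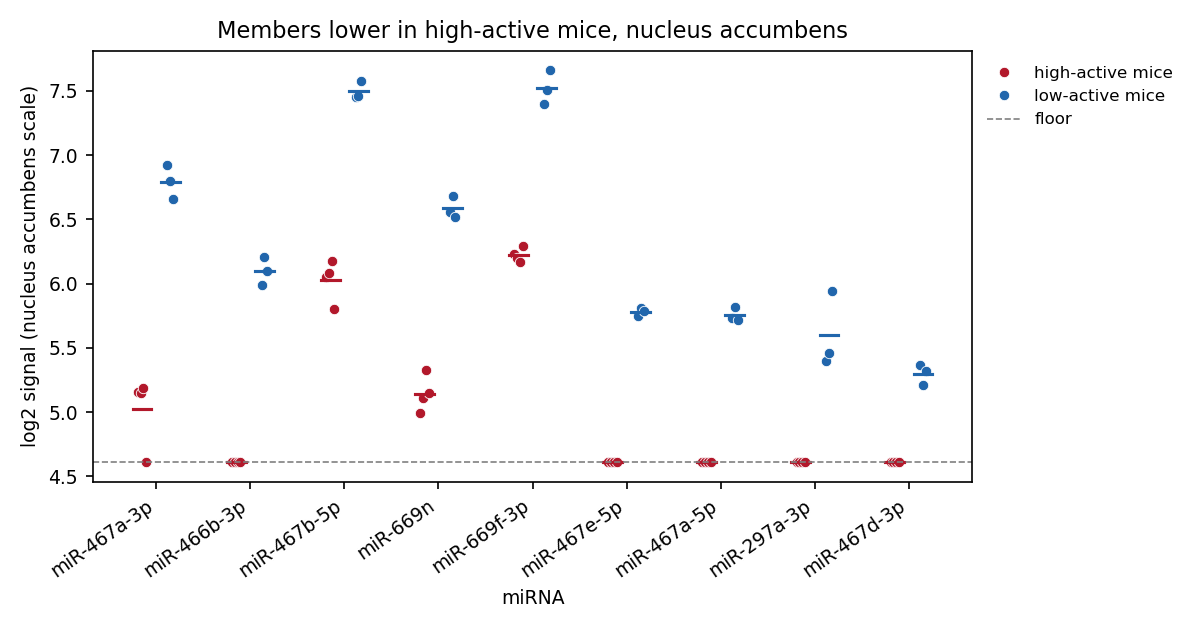
Log2 signal on each of the 7 nucleus accumbens arrays (points; bars, group means) for the 9 members called in the strain test, with the floor as a dashed line. Every high-active array (red, n = 4) lay below every low-active array (blue, n = 3), and 5 members, tested through the low-active arrays alone, were at the floor in all high-active mice.

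The 9 members that did not pass, miR-466f-3p, miR-466g, miR-466h-3p, miR-466i-3p, miR-466i-5p, miR-466q, miR-467f, miR-669c-3p and miR-669p-3p, differed by -0.39 to -0.07, with standard errors of 0.18 to 0.30. In each the 2 strains overlapped. These tests do not show that the strains had equal levels. miR-466i-5p, for example, read 6.62, 6.51, 7.19 and 7.52 against 7.01, 7.46 and 6.64 (difference -0.07, SE 0.30, adjusted p = 0.882). By origin in the reference, 7 of 11 tested members with all genes in Sfmbt2 were called lower, 1 of 2 with some there, and 1 of 5 with none, counting the 5 seen in low-active mice alone. The 1 with none was miR-669n, which the study places in Sfmbt2.

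Of the 3 slides 2 held both strains, and the 9 members were lower in high-active mice on each. For the 5 detected in low-active mice alone this was fixed in advance. The 4 measured in both strains differed by -1.61 to -1.28 on the second slide (1 array per strain). On the third slide these 4 differed by -1.69 to -1.42 (3 arrays against 1). With slide as a fixed block 8 of the 9 passed, those 4 among them. The exception was miR-467d-3p (-0.67, limma, adjusted p = 0.0586). The red cell markers miR-451a and miR-144-3p summed to 10.95 to 12.33 in high-active and 11.99 to 13.75 in low-active accumbens, and 3 leukocyte markers to 9.91 to 10.27 and 9.86 to 10.03. The muscle markers were highest in low-active mouse 197, as given above. The part of these in the result was not tested. The miR-200 signal was high on 3 high-active arrays and 1 low-active array. Without those 4 arrays, an alternative added after seeing the data, 1 high-active and 2 low-active arrays remained. The 9 differences then stood between -1.68 and -0.64. With 1 residual degree of freedom none of 399 miRNAs passed the limma test (80 had an unadjusted p under 0.05, 8 of them members), so the missing calls say nothing about the miR-200 signal. Without scaling between arrays, miR-466b-3p alone passed (limma, -1.31, adjusted p = 0.0158), and its direction was fixed by the filter. The 4 measured in both strains stayed negative but none passed. They were miR-467a-3p (-1.37, adjusted p = 0.108), miR-467b-5p (-1.09, 0.161), miR-669f-3p (-0.92, 0.205) and miR-669n (-1.07, 0.0947). Of all miRNAs, 3 were called higher and 1 lower without scaling, against 4 and 23 with it.

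Each miRNA was represented by 1 to 4 probes. Of 35 member probes tested in the nucleus accumbens, 17 were lower in high-active mice, none was higher, and all 35 differences were negative (28 with arrays scaled over all probes, 31 after quantile normalization and 18 without scaling), where 5.06% of all 731 probes tested were called lower and 1.09% higher. Those 17 were all the tested probes of the 9 members, 7 of them tested through the low-active arrays alone, and 10 of the 28 member probes detected in both strains were called lower, against 4.21% of all such probes. The 4 probes of miR-467a-3p differed by -1.80 to -1.58, the 2 of miR-466b-3p by -1.49 and -1.37, the 2 of miR-669n by -1.45 and -1.42 and the 2 of miR-467b-5p by -1.47 and -1.43. miR-467e-5p was the least even, at -1.18 and -0.66, followed by miR-669f-3p at -1.30 and -0.97. Probes of 1 miRNA share its target and are not independent measurements.

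In the soleus 1 of 13 members tested was called lower in high-active mice and none higher, where 0.877% of the 342 miRNAs tested were called lower and 0.292% higher. Of the 11 members detected in both strains none passed (limma), nor did any have an unadjusted p under 0.05. The member called was miR-467b-5p, which was detected in low-active mice alone and so could only be called lower. It was at the floor of 4.59 in all 4 high-active mice and at 5.46 and 5.45 in low-active mice 194 and 195, a difference of at least 1.57-fold (log2 difference -0.87, SE 0.05, adjusted p = 0.00516). The call was lost with slide as a block (-0.87, adjusted p = 0.084), with a higher floor and without high-active mouse 227 (adjusted p = 0.0583), and with normexp background correction the difference was 0.03. The difference was -0.86 on the first and -0.88 on the second slide. Of its 2 probes, the other differed by -0.04. miR-467a-3p was also at the floor in every high-active mouse and at 5.01 and 4.74 in low-active mice without passing the test (-0.28, adjusted p = 0.21). The other 11 members ranged from -0.71 (miR-669f-3p, adjusted p = 0.323) to 0.18 (miR-466i-5p), and the median over the 11 was -0.20 against -0.01 for all miRNAs detected in both strains. Of the 13 differences 12 were negative, 4 when arrays were scaled over all probes and 3 with normexp.

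In the EDL no member passed the test among 12 (limma), and 3 had an unadjusted p under 0.05 (24 of all miRNAs), while 0.303% of the 330 miRNAs tested were called higher and 0% lower. All 12 differences were negative under each scaling tried, and the median over the 11 members detected in both strains was -0.90 against 0.03 for all such miRNAs. The 3 were miR-467b-5p, miR-669f-3p and miR-669n. miR-467b-5p was at the floor of 4.41 in high-active mice 225 and 227. It read 5.17, 4.87, 5.51 and 5.27 in low-active mice 194, 195, 196 and 197, without overlap (-0.79, SE 0.23, limma, adjusted p = 0.422). It was detected in low-active mice alone, so its direction was fixed by the filter, here and in the counts of 12 and 3 above. miR-669f-3p read 5.35 and 5.57 against 6.12, 7.55, 6.45 and 6.39 (-1.17, SE 0.41, adjusted p = 0.642). miR-669n read 4.76 and 4.67 against 5.08, 6.43, 5.71 and 5.41 (-0.95, SE 0.37, adjusted p = 0.661). In 7 of the 11 members detected in both strains both high-active arrays lay below every low-active array, as they did in 9.69% of all such miRNAs. The 9 members found on every array varied together across arrays (median pairwise correlation 0.98), so members are not separate observations in this count. The same holds for the sign count and the median above. Differences ranged from -1.99 to -0.46 on the first slide, which held low-active mouse 195, and from -1.04 to -0.06 on the third. Low-active mouse 195 was the highest of the 6 arrays for 11 of the 12 members, all except miR-467b-5p. Its scaling percentile, 657.8 intensity units before scaling, was the lowest of all 19 arrays, and leaving out any single array of the tissue gave no call and a member median of -1.11 to -0.68.

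Brain and muscle were compared on a common scale over all 19 arrays, with a floor of 4.54. All 18 members tested differed, 9 higher in brain and 9 higher in muscle, at a background where 49% of the 484 miRNAs tested were called higher in brain and 33.9% lower. Of the 9 higher in brain, miR-297a-3p, miR-466b-3p, miR-467a-5p and miR-467d-3p were detected on no muscle array, so that their direction was fixed by the filter of 2 arrays. Of all miRNAs, 237 were called higher and 164 lower in brain, but 192 and 216 with arrays scaled over all probes and 196 and 215 after quantile normalization. In the miR-467 family 5 of 6 were higher in brain, whereas 6 of 7 miR-466 members were higher in muscle. The miR-669 members were evenly divided, and miR-297a-3p was higher in brain. By place, 7 of 11 members with all genes in Sfmbt2 and 1 of 5 with none there were higher in brain, with medians of 0.58 and -1.32. The miR-467 count includes miR-467a-5p and miR-467d-3p, and the Sfmbt2 count and median include these and miR-466b-3p, all fixed in direction by the filter. miR-467e-5p, in each of these counts, was at the floor on every muscle array. The contrasts by family and by place thus rest in part on members with no muscle signal above the floor. Of the miR-466 members higher in muscle, all but miR-466g were among the 9 that varied together across arrays. Those are not separate observations in the counts.

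The members higher in muscle were, from the largest difference, miR-466i-5p, miR-669c-3p, miR-466q, miR-669p-3p, miR-467f, miR-466h-3p, miR-466f-3p, miR-466i-3p and miR-466g. miR-466i-5p lay between 6.48 and 7.37 on the 7 accumbens arrays and between 8.99 and 10.71 on the 12 muscle arrays. There was no overlap, and muscle was 6.00-fold higher (difference -2.58, SE 0.23, adjusted p = 3.7e-08). Its hairpin partner miR-466i-3p lay between 5.62 and 6.55 in brain and between 6.55 and 8.77 in muscle (-1.17, SE 0.21). miR-467f, at 6.57 to 7.42 and 7.55 to 9.81, was 2.50-fold higher in muscle. The other 5 with a difference over 1 ranged from 2.42-fold (miR-466f-3p) to 2.76-fold (miR-669c-3p). Brain and muscle overlapped in miR-466g (-0.64, limma, adjusted p = 0.00659). The others higher in muscle were all among the 9 members that varied together across arrays, so they are not separate observations. Soleus and EDL gave like values, as in miR-466i-5p with -2.71 against soleus and -2.46 against EDL.

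The members called higher in brain were miR-467b-5p, miR-467a-3p, miR-466b-3p, miR-467e-5p, miR-467a-5p, miR-669f-3p, miR-297a-3p, miR-669n and miR-467d-3p. miR-467b-5p read 6.06, 6.05, 5.99 and 5.64 in high-active and 7.46, 7.32 and 7.55 in low-active accumbens. In muscle it was at the floor on all 6 high-active arrays and between 4.94 and 5.77 on the 6 low-active ones, so that within each strain every brain array was above every muscle array (1.66, SE 0.09, adjusted p = 4.3e-11). miR-467a-3p showed a smaller gap, with 6.93, 6.66 and 6.63 in low-active accumbens against 5.16 and 5.05 in low-active soleus (1.15, SE 0.08 over both muscles). miR-466b-3p, at 6.00, 6.06 and 6.07 in low-active accumbens and at the floor on each of the other 16 arrays, was at least 2.84-fold higher in low-active accumbens than in low-active soleus and at least 2.13-fold higher than in low-active EDL. The same bounds were 2.24 and 1.68 for miR-467a-5p, 2.01 and 1.5 for miR-297a-3p, and 1.63 and 1.22 for miR-467d-3p. In high-active mice these 4 were below background in all 3 tissues, so no tissue difference was measured there.

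The brain calls of 2 members changed with the scaling, the probe or the arrays kept. miR-669f-3p, at 5.98 to 7.63 in brain and 5.34 to 7.62 in muscle (0.58, SE 0.17), was -0.03 when arrays were scaled over all probes and -0.24 after quantile normalization. miR-669n (0.48, SE 0.17) was -0.13 and -0.69 under these scalings, and its 2 probes differed in direction, at 0.48 and -0.05. The value of miR-669n was between -0.08 and 0.00, with the call lost, when any accumbens array other than that of high-active mouse 227 was left out. The probe of highest mean was chosen anew in each fit, and these values lie near that of the second probe. They need not reflect the array left out. The other 16 members kept their direction under every scaling tried. With normexp background correction 2 members passed as higher in brain and 8 as higher in muscle. The brain and strain comparisons share the accumbens arrays, so the values of the 9 members in one are not independent of those in the other.

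**Figure D3:**
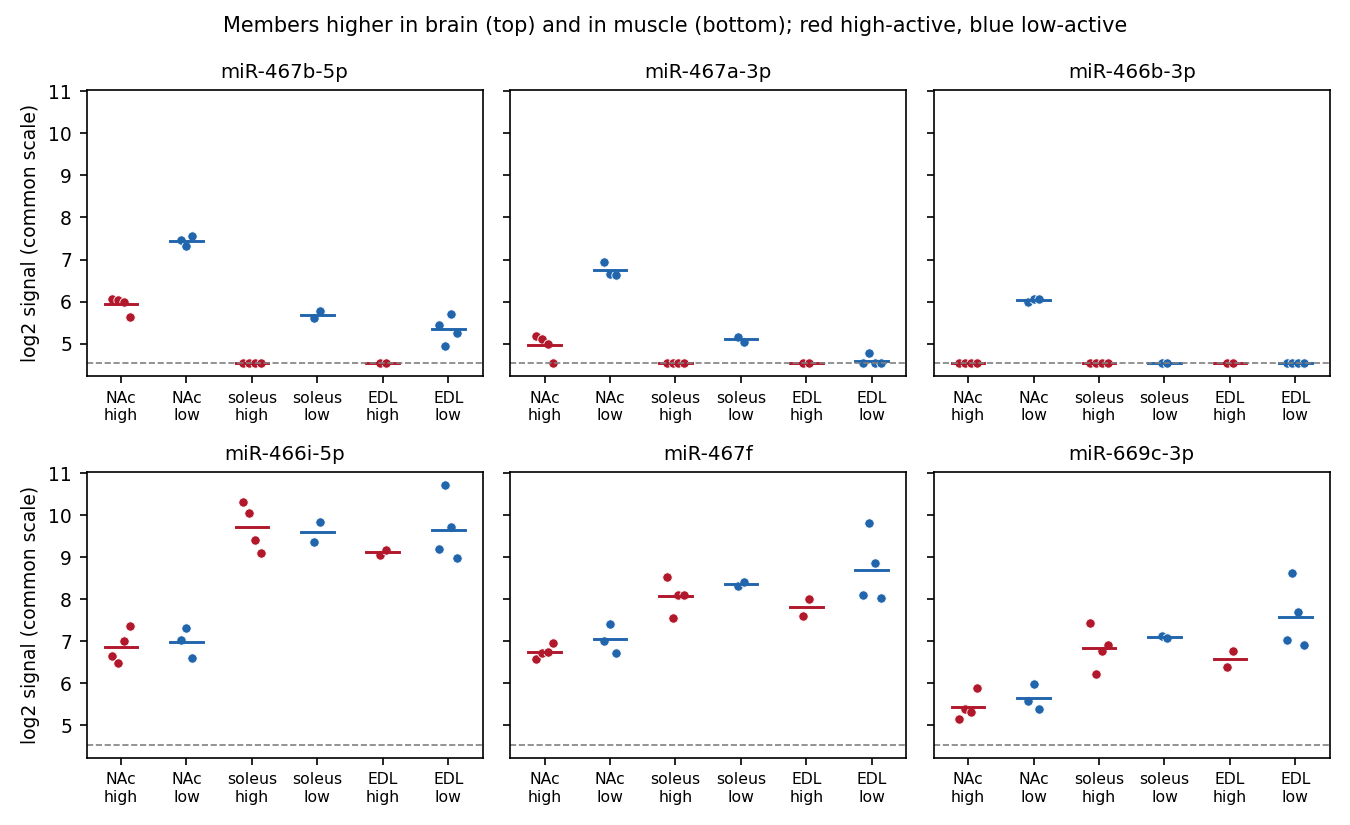
Log2 signal on the common scale of 3 members higher in brain (top) and 3 higher in muscle (bottom), for every array of the 6 groups (points; bars, group means; dashed line, floor at 4.54). miR-467b-5p, miR-467a-3p and miR-466b-3p peaked in low-active nucleus accumbens, while miR-466i-5p, miR-467f and miR-669c-3p were higher on the 12 muscle arrays than on the 7 accumbens arrays in both strains.

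**Figure D4:**
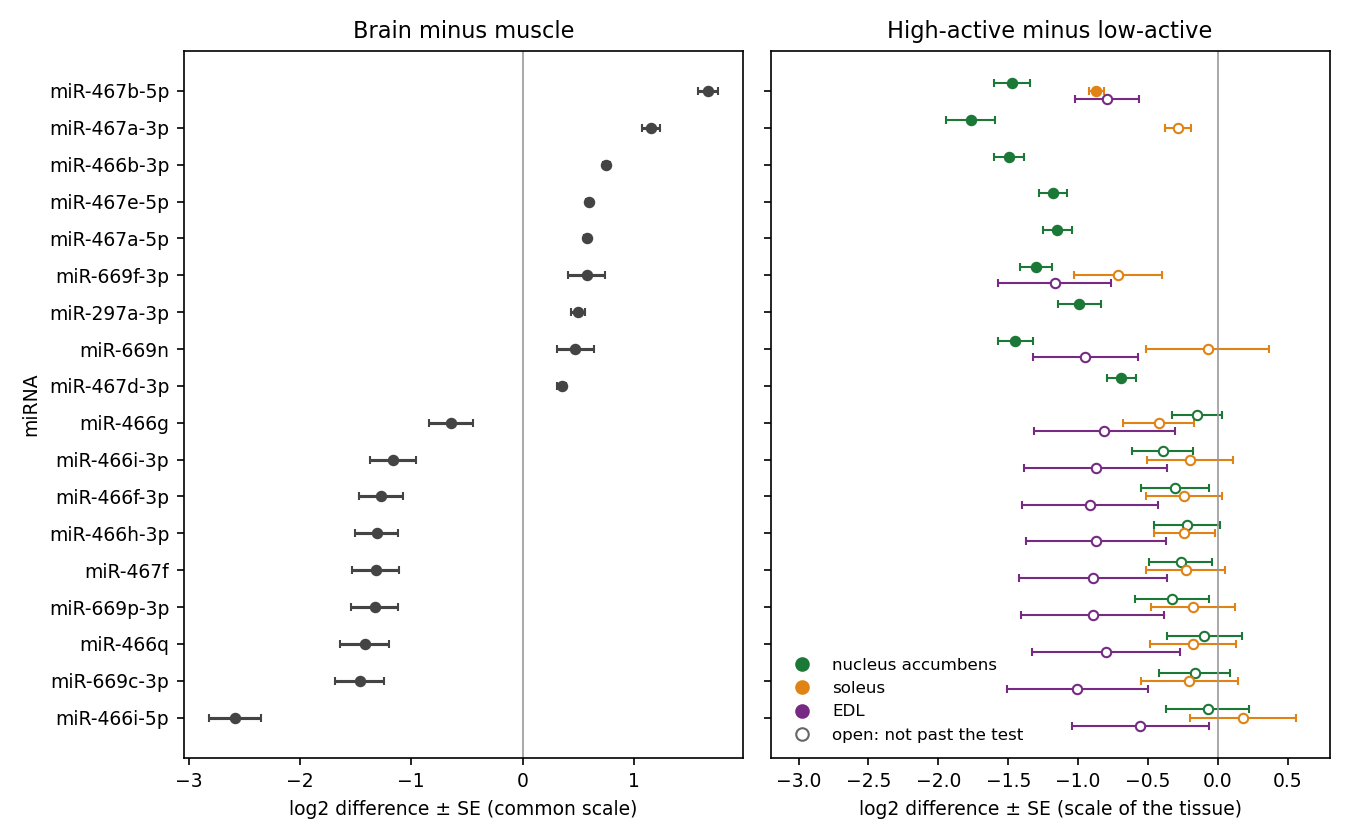
Difference in log2 signal with its standard error for the 18 members tested, brain minus muscle (left, common scale) and high-active minus low-active within each tissue (right, scale of that tissue; filled points passed the test). miR-466i-5p was higher in muscle (-2.58) and miR-467b-5p in brain (1.66), and miR-467a-3p was lower in high-active accumbens (-1.77). Differences of members at the floor in one group are cut short by it and have no order. The 2 panels share the accumbens arrays.

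Whether the strain difference itself differed between brain and muscle was tested over all 19 arrays. For 6 of 18 members it was lower in brain and for none higher, where 8.47% of 484 miRNAs were called lower and 0.62% higher. They were miR-466b-3p (-1.51), miR-467a-3p (-1.48), miR-467e-5p (-1.19), miR-467a-5p (-1.16), miR-297a-3p (-1.0) and miR-467d-3p (-0.71), with adjusted p from 3.1e-11 to 5.5e-05. Of these, 4 were below background on every muscle array and miR-467e-5p, detected on 2, was also at the floor on all 12, so for 5 of the 6 the floor set the muscle difference to 0. With no floor above 1 intensity unit, 5 of the 6 turned positive and miR-297a-3p stood at -0.05, so these tests do not show that the difference was confined to brain. For miR-467b-5p, measured in low-active muscle, the brain value minus the muscle value was -0.54 (SE 0.18, adjusted p = 0.0726). Without scaling between arrays 8 members were called higher and 5 lower in this contrast, and with normexp none.

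The 9 members detected on every array varied together. After each array's value was set relative to its group mean, correlations between pairs of these 9 ranged from 0.50 to 0.99 over the 19 arrays, with a median of 0.98 over 36 pairs. Among 175 other miRNAs detected on every array the median was 0.13. The highest median correlation with the other 8 was 0.99, for miR-466h-3p, miR-466i-3p and miR-466q, whereas miR-466i-5p and miR-669f-3p were the least alike (0.50). The shared deviation ran against the brightness of the array. Its median over the 9 members correlated with the deviation of the log2 scaling percentile at -0.91 (Spearman -0.86), and at -0.81 without the 2 arrays farthest from the centre. It was -0.86, -0.98 and -0.92 in nucleus accumbens, soleus and EDL. The scaled values were divided by this percentile, so the measures share it, and these correlations describe the arrays without a test. For the other 175 miRNAs the median correlation with the percentile was -0.07.

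**Figure D5:**
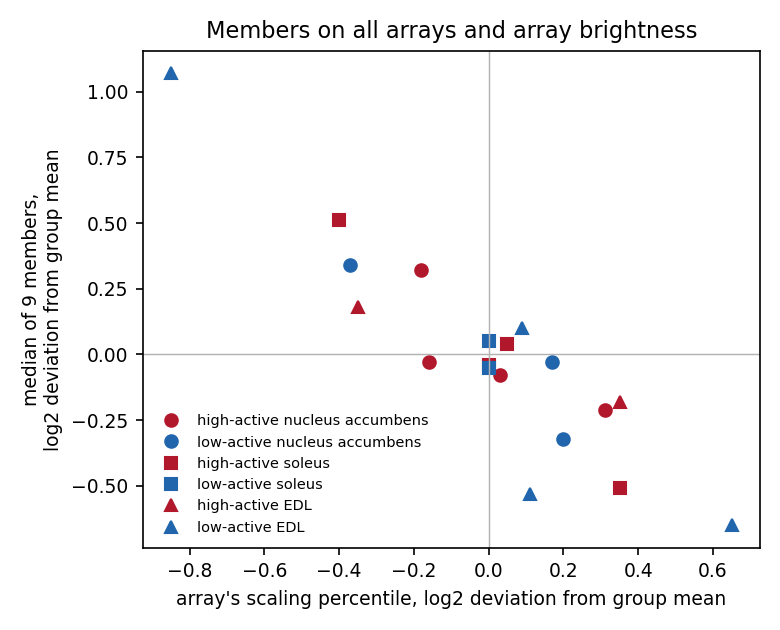
Median log2 deviation of the 9 members found on all arrays from their group means (vertical) against the log2 deviation of the array's scaling percentile from its group mean (horizontal), one point per array. Dim arrays lie at the upper left, with low-active EDL of mouse 195 at 1.07 and -0.85, and bright arrays at the lower right.

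Other miRNAs with the same kind of repeat were sought by sequence alone. Of 860 miRNAs on the array outside the families with a reference sequence, none shared a seed with the 7 printed members, none had an alternating A and C run of 8 bases, and 6 (0.698%) had an alternating U and G run of that length. Of these, miR-574-5p, miR-1187 and miR-3082-5p were higher in muscle, with brain minus muscle at -2.92, -2.67 and -2.94 on the log2 scale, and are printed because their runs are the longest:
miR-574-5p (chromosome 5): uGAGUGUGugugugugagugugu
miR-1187 (chromosome 5): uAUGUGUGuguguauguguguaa
miR-3082-5p (chromosome 17): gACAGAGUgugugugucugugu
miR-3097-5p was also lower in brain than in both muscles together (-0.47, limma, adjusted p = 0.00126). It was lower in nucleus accumbens than in soleus (-0.95) but not than in EDL (0.01, adjusted p = 0.953). miR-672-5p, on the X chromosome, was higher in brain (2.26), and miR-32-3p was detected on no array. Of all miRNAs tested, 33.9% were called lower in brain and 49% higher. In the nucleus accumbens miR-672-5p was lower in high-active mice (-0.76, adjusted p = 0.039), and the other 2 tested there, miR-574-5p (-0.06) and miR-3082-5p (0.09), did not pass.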

How the data were processed

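The deposited scanner files hold spot intensities that the authors' scanner software (Feature Extraction) wrote, background-subtracted and not normalized between arrays. The authors left out arrays of low signal quality. A deposited series table holds log2 values, normalized per array and centred on a median of 0 per miRNA within a tissue, at an unknown percentile. It was used only as an alternative. The software's total for a miRNA equalled its own probe totals on no array for 8 of 24 members it detected, so spots were used. Control and outlier spots were dropped and the rest averaged per probe. Arrays were scaled by the 75th percentile over probes detected on all arrays of the fit (594, 456 and 417 in nucleus accumbens, soleus and EDL, 328 over all 19), floored at the median of the arrays' lowest detected signals, and taken to log2. A miRNA took its probe of highest mean. miRNAs detected on at least 3, 2 and 2 arrays (2 over all 19) were tested within a tissue over its arrays, or over all 19, with limma 3.58.1 in R 4.3.3, Benjamini-Hochberg adjusted p under 0.05. Where a group lay below background on every array, a fold is a bound: the bright group's mean against, per array, the higher of the lowest detected signal and the probe's own. Mouse numbers in the sample titles link tissues of 1 animal, so mouse was a random block between tissues (correlation 0.0934). Within a tissue each mouse gave 1 array, and the number of arrays limits precision. Named with values are members past a strain test, the 2 brightest of each family and arm, the 8 largest tissue differences each way, and the 2 members assayed by qRT-PCR. Members and lists were chosen with earlier results of these data known. The tests were checked on simulated data. Alternatives covered scaling, normexp background correction (on median spot signals), floor, detection filter, slide, probe choice, mouse block and leaving out each array. Figures were drawn with matplotlib in Python. Sequences are from RefSeq.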

Additional observations from a re-analysis of the deposited data

Results flagged for a closer look

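The strain difference (high-active minus low-active) was more negative in brain than in muscle, by a test of that contrast over all 19 arrays, for miR-466b-3p (-1.51), miR-467a-3p (-1.48), miR-467e-5p (-1.19), miR-467a-5p (-1.16), miR-297a-3p (-1.0) and miR-467d-3p (-0.71). miR-466b-3p, miR-467a-5p, miR-297a-3p and miR-467d-3p were below background on all 12 muscle arrays, miR-467e-5p was at the floor on all 12, and the values of 5 of the 6 turned positive with no floor. No array stood apart from its group in any of 31 checks of a member measured on all 4 arrays of a group, where chance would mark about 1 in 20.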

How the results depend on the processing

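Of 9 members called lower in high-active nucleus accumbens, 5 had a direction fixed by the filter. All 9 passed with arrays scaled over all probes, after quantile normalization and without a floor. Each array left out in turn also gave 9. The count was 6 with the floor doubled (lost were miR-297a-3p at -0.11, miR-467a-5p at -0.15 and miR-467d-3p at 0), and with software totals 5 of the 9 lost their call (miR-466b-3p -0.37, adjusted p = 0.943). It was 1 without scaling, 4 with normexp, 2 of 7 tested in the deposited table, and 0 without the 4 arrays with miR-200 signal (added after seeing the data, 1 residual degree of freedom, so that the lost calls say nothing about that signal), and for probes (17 called) 2, 8 and 0 under no scaling, normexp and without those arrays, and 15 to 17 with an array left out. In the soleus the 1 member and 1 probe called became 11 and 25 without scaling, 0 and 0 with normexp, 2 and 4 without a floor, 0 and 0 with the floor doubled, 0 and 0 with slide as a block, 2 members with software totals, 0 in the deposited table, 0 to 2 members (0 without high-active mouse 227, 2 without low-active mouse 195) and 0 to 3 probes with an array left out. In the EDL 1 member and 1 probe were called without a floor, and 0 with any array left out.

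Of the 18, 17 and 18 members that differed between brain and both muscles, soleus and EDL, 10, 10 and 9 passed with normexp, and 17 to 18, 16 to 18 and 17 to 18 with an array left out. The 6 members whose strain difference differed between brain and muscle became 13 without scaling, 0 with normexp, 3 without a floor, 3 with software totals and 6 to 8 with an array left out. Values that changed sign were, for brain against muscle, miR-669f-3p (-0.03 scaled over all probes, -0.24 after quantile normalization) and miR-669n (-0.13 and -0.69, -0.09 with normexp, -0.05 without the miR-200 arrays, -0.08 to 0.55 with an array left out). miR-467b-5p in the soleus was 0.03 with normexp. For strain differences between tissues, no floor gave 1.39 for miR-466b-3p, 0.92 for miR-467a-3p, 1.49 for miR-467a-5p, 0.93 for miR-467d-3p and 1.05 for miR-467e-5p, and software totals gave 0.62 for miR-466b-3p, 0.18 for miR-467a-3p and 0.24 for miR-467e-5p. The causes were not tested. Of 173 single values of the 9 accumbens members under alternatives, 141 stayed on their side of the threshold and 32 were no longer past it, with none of opposite sign. The direction of 5 of these 9 was fixed by the filter, so their unchanged sign adds no support. The 4 measured in both strains all passed with normexp, and none of them passed without scaling.

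With mouse as a replicate block between tissues, fixed instead of random, and with no block, 18, 17, 18 and 6 members passed in the 4 comparisons across tissues, as with the random block. For the strain comparisons no paired analysis was possible because each mouse gave 1 array within a tissue and the strains share no mouse.

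Scaling moved the median of all miRNAs: in nucleus accumbens it was -0.11, and 0.10 over all probes and 0.24 without scaling, in soleus -0.02, 0.18 and -0.68, in EDL 0.02, 0.21 and 0.04, and between brain and muscle 0.21, -0.14 and 0.33. All miRNAs called in nucleus accumbens numbered 27, but 4 without scaling, 10 with normexp, 16 after quantile normalization, 15 with a doubled floor, 13 with slide as a block, 12 without a filter and 13 with software totals. Signals of members at the floor in a group are bounds, and with 2 to 4 arrays per group smaller differences could not be measured.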
